A study of Mus musculus with 2 samples.

Results

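Inflammatory receptors and NF-kappaB signalling were followed in aortic endothelium through 10 genes, the rows of the deposited count matrix named Tnfrsf1a, Tnfrsf1b, Myd88, Tlr4, Traf6, Nfkb1, Nfkbia, Rela, Ifngr1 and Il6st. Each name matched 1 of the 27514 rows. The genes were chosen by name, as receptors and signal carriers known to promote the emergence of blood stem cells. No cut on their values was used, but earlier results of these data had been seen. Single-cell RNA-seq had been performed on sorted endothelium around the dorsal aorta of E10.5 (embryonic day 10.5) mouse embryos to learn what changes when the transcription factor SP3 is missing. Wild-type and SP3-null embryos came from matings of Sp3+/- parents on a C57Bl6/J x B6129SF1/J background, and the null allele was Sp3tm1Sus. Cells were pooled by genotype and sorted as Ter119-, CD41 low or negative, CD31+, CD144+ and ESAM+, and each genotype gave 1 library from an unstated number of embryos. Genotype, pool of embryos and library therefore cannot be told apart, no difference between the libraries has a replicate check, and no test was made.

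TNF receptors, toll-like receptors, the interferon gamma receptor and the gp130 receptor pass on inflammatory signals. The first pair converges on the transcription factor NF-kappaB, with MYD88 and TRAF6 as carriers on the toll-like side, and IkB-alpha, the product of Nfkbia, holds NF-kappaB in the cytoplasm and is itself switched on by it. Interferon gamma and gp130 receptors act mainly through JAK kinases and STAT factors. In the embryonic aorta, arterial endothelium (AE) passes through the conflux AE and pre-hemogenic (pre-HE) stages to hemogenic endothelium (HE), from which intra-aortic clusters (IAC) of blood cells bud, and sterile inflammatory signals are known to support this step.

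The wild-type library held 4451 cells with 79456081 unique molecular identifiers (UMIs, 1 per captured transcript) and the SP3-null library 3954 cells with 71154918. The classes of cells, arterial and venous (VE) endothelium split by Wnt activity, conflux AE, pre-HE, HE, IAC and other endothelium, are those of the deposited table. They were assigned from the expression of the same cells, so differences between classes are given as descriptions. HE was the smallest class, with 59 and 40 cells, and median depth ran from 8850 UMIs per cell in conflux AE to 31009 in IAC. A level is given as CPM, the usual scaling of a gene's UMIs to the total UMIs of the summed cells, and libraries were compared over the sum of 6 endothelial classes (both AE, both VE, conflux AE and pre-HE), with 2639 wild-type and 2401 SP3-null cells. Intervals are exact 95% intervals for counting error only. The 12 endothelial markers checked were present in every class and were least abundant in IAC, at 924 and 868 CPM against 2674 CPM or more elsewhere. Erythroid transcripts were found at 24.6 to 125 CPM in every class although Ter119+ cells had been sorted out. In the summed endothelium, Sp3 itself had 46.3 CPM (wild-type) and 35.6 CPM (SP3-null) (log2 ratio -0.38, -0.48 to -0.28). Its 3′ tags can lie outside the altered part of the allele, so this level does not check the genotype. The libraries shared 5 cell barcodes.

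Promoter sequences were taken from RefSeq (GRCm38.p6), which listed 8 of the 10 genes. Tlr4 and Nfkb1 had no entry. The 250 bases before the start site are shown for the gene with the lowest ratio between the libraries (Myd88) and for the gene that NF-kappaB is known to switch on (Nfkbia), with matches in capitals. GGGCGG, or CCGCCC where it lies on the other strand, is the GC box that factors of the SP family bind, and GGAAATTCCC matches the NF-kappaB consensus.
Myd88, chr9:119340019-119340268, minus strand: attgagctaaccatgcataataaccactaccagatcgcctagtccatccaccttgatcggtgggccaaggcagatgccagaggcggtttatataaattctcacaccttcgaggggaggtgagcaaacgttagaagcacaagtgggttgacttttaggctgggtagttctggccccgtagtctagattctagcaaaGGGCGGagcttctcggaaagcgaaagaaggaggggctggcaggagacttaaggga
Nfkbia, chr12:55492648-55492897, minus strand: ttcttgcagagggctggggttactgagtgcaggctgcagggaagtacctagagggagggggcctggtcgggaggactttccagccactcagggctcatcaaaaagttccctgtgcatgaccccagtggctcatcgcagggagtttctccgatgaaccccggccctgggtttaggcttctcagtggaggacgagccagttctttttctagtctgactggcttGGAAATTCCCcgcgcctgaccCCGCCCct
The GC box of Myd88 began 55 bases before the start site, and that of Nfkbia 8 bases before it, with the NF-kappaB match at 29 bases. A GC box was found in 7 of the 8 listed promoters, all but that of Tnfrsf1a, and in 32.7% of 32851 promoters of the same length. The NF-kappaB consensus was found in 1 of the 8, against 3.90% of all promoters. A match of letters is a description and not a bound site.

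Myd88 (chr9:119335934-119340018, GRCm38), the adaptor that most toll-like and interleukin-1 receptors share, was the 1 gene of the 10 that differed between the libraries by a log2 ratio of more than 0.32, the size set here for counting a gene as higher or lower. Over the summed endothelium, 361 wild-type and 157 SP3-null UMIs gave 8.58 CPM (7.71 to 9.51) and 3.98 CPM (3.38 to 4.65), a level 2.15-fold lower in the SP3-null library (log2 ratio -1.11, -1.39 to -0.83). Among the 10146 genes with at least 200 UMIs, 0.227% were at or below this ratio. Myd88 was lower in the SP3-null library in 9 of 9 classes, and 406 of those genes (4.0%) were likewise lower in all 9. In Wnt-high AE the wild-type level was 10.2 CPM and the SP3-null level 4.96 CPM, in Wnt-low AE 10.0 and 4.74 CPM, in Wnt-high VE 7.03 and 3.14 CPM, in Wnt-low VE 7.92 and 3.48 CPM, and in other endothelium 7.96 and 4.03 CPM. In these 5 classes the interval of the ratio lay below 0. In the other 4 classes it included 0, and the levels were 8.92 and 5.39 CPM in conflux AE, 8.46 and 4.49 CPM in pre-HE, 10.7 and 8.93 CPM in HE, and for IAC 19.7 and 14.3 CPM. The clusters held the highest level of Myd88 in both libraries, in SP3-null cells not beyond the counting error of HE. Between the clusters of the libraries the log2 ratio was -0.46 (-0.99 to 0.07), and whether it differs from the ratio in endothelium was not tested.

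**Figure D1:**
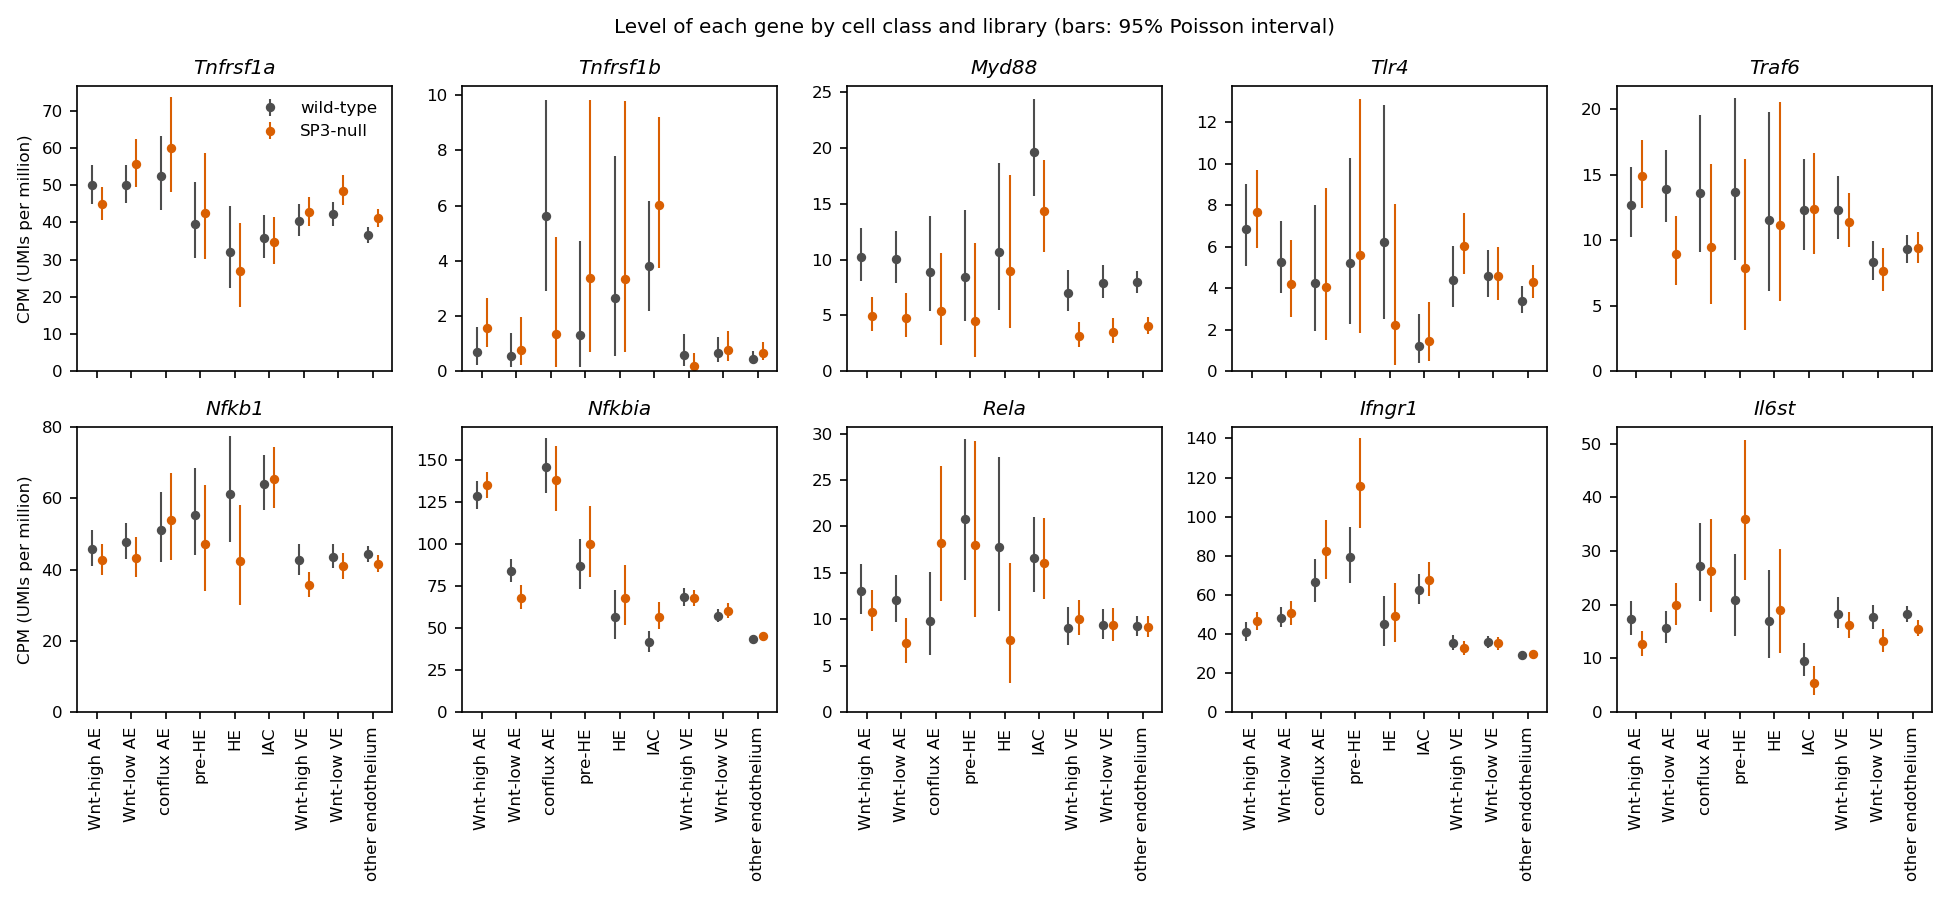
Level of each of the 10 genes (CPM, linear axis from 0) in the 9 cell classes, with wild-type in grey, SP3-null in orange and exact 95% Poisson intervals as bars. The orange points of Myd88 lie below the grey ones in all 9 classes, Nfkbia is highest in conflux AE at 146 and 138 CPM, and Ifngr1 is highest in pre-HE at 79.4 and 116 CPM.

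The genes on either side of Myd88 on chromosome 9 gave a mixed picture. Of 8 neighbours within 0.5 Mb that had at least 200 UMIs, 1 was higher and 1 lower by that size in the SP3-null library. Oxsr1, 13.3 kb away on the one side, had 20.6 and 21.2 CPM (log2 ratio 0.04, -0.10 to 0.18), and Acaa1a, 1.01 kb away on the other, had 36.9 and 38.6 CPM (0.07, -0.04 to 0.17). The nearest neighbours on both sides of Myd88 thus had intervals that included 0. Farther off, Vill, a villin-like gene 264 kb away, had 3.44 wild-type and 13.7 SP3-null CPM (log2 ratio 1.996, 1.73 to 2.27) and was higher in 9 of 9 classes. Plcd1, a phospholipase C gene that adjoins Vill, had 3.75 and 2.03 CPM (-0.89, -1.30 to -0.49) and was lower in 8 classes. The parents came from a cross of strains, and no strain allele was read here, so that genotype and inherited background cannot be told apart. Vill and Plcd1 were chosen after their values were seen.

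**Figure D2:**
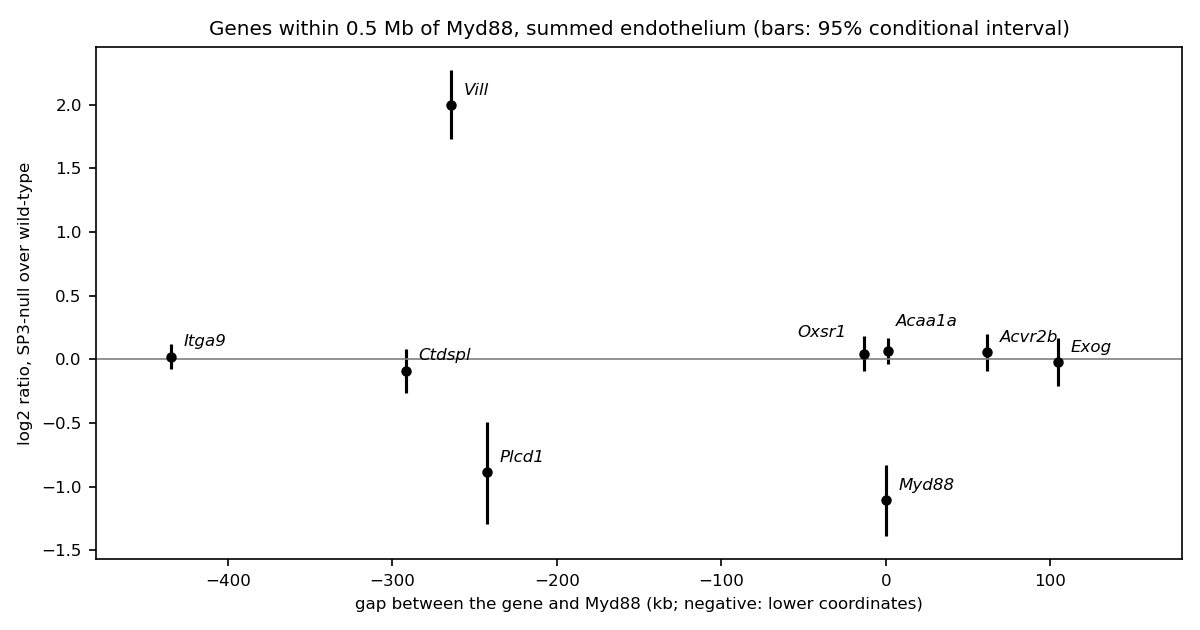
Log2 ratio of SP3-null over wild-type CPM in the summed endothelium (vertical axis, bars are exact 95% intervals) for Myd88 and its 8 neighbours against their gap to Myd88 in kb. Oxsr1 and Acaa1a, the nearest, sit at 0.04 and 0.07, while Vill sits at 1.996 and Plcd1 at -0.89.

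Of the 10 genes, 9 had at least 200 UMIs in the summed endothelium. Of these 9, 1 (Myd88) was lower by at least 0.32 on the log2 scale in the SP3-null library, against 6.48% of all 10146 genes, and 0 were higher by as much, against 2.67%. The median log2 ratio of the 9 was -0.10, beside -0.02 over all genes, and 5 lay below 0 where 57.1% of all genes did. With 1 gene of 9, the count is close to what the background share gives.

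Among the receptors, Tnfrsf1a (chr6:125349723-125362483), the widely expressed TNF receptor 1, had 45.0 wild-type and 47.4 SP3-null CPM (log2 ratio 0.07, -0.02 to 0.17). Tlr4 (chr4:66827551-66846581), the endotoxin receptor, had 5.06 and 5.63 CPM (0.15, -0.12 to 0.43). Ifngr1 (chr10:19591949-19610229), the ligand-binding chain of the interferon gamma receptor, had 42.0 and 42.7 CPM (0.02, -0.08 to 0.12). For these 3 receptors the interval included 0. Il6st (chr13:112464070-112506860) encodes gp130, the chain shared by receptors of the interleukin-6 family, and had 18.0 and 15.8 CPM (-0.19, -0.34 to -0.03), a direction that turned to 0.085 when the 6 classes were weighted alike. Tnfrsf1b (chr4:145212368-145246870), TNF receptor 2, had 38 and 34 UMIs in all the summed endothelium (0.903 and 0.862 CPM), too few to compare.

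Apart from Myd88, the carriers and the NF-kappaB module stayed within 0.32. Traf6 (chr2:101678420-101701668), the ubiquitin ligase downstream of MYD88, had 11.4 and 10.6 CPM (log2 ratio -0.10, -0.30 to 0.09). Nfkb1 (chr3:135584655-135691969), which encodes the p105 and p50 subunit, had 45.4 and 40.7 CPM (-0.16, -0.25 to -0.06), and its ratio was below 0 in 7 of 9 classes. Rela (chr19:5637442-5648134), the p65 subunit, had 10.9 and 10.1 CPM (-0.10, -0.30 to 0.10). Nfkbia (chr12:55489409-55492647) had 82.3 and 84.1 CPM (0.03, -0.04 to 0.10), with an interval inside 0.32 in either direction, though the ratio was -0.058 with every cell thinned to 5000 UMIs.

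Single classes departed from these sums. Nfkbia was lower in SP3-null cells in Wnt-low AE (84.1 and 68.1 CPM, log2 ratio -0.30, -0.50 to -0.12) and higher in IAC (41.5 and 56.8 CPM, 0.45, 0.15 to 0.75). With cells thinned to 5000 UMIs the IAC levels were 36.5 and 38.8 CPM, a smaller difference. A UMI was then left in 14.3% of 126 and 12.6% of 103 IAC cells, too few to show whether the difference went. Wnt-low AE had 85.8 and 71.1 CPM. Rela was lower in Wnt-low AE (12.04 and 7.40 CPM, -0.70, -1.28 to -0.14) and higher in conflux AE, where it rested on 21 and 27 UMIs (0.88, 0.01 to 1.78). Il6st was lower in Wnt-high AE (-0.46, -0.84 to -0.08) and Wnt-low VE (-0.41, -0.71 to -0.12) and higher in pre-HE, from 32 UMIs in each library (0.79, 0.03 to 1.54). Ifngr1 was higher in pre-HE (0.54, 0.15 to 0.93), and Traf6 was lower in Wnt-low AE (-0.64, -1.17 to -0.13). Tnfrsf1a was higher in Wnt-low VE (0.21, 0.04 to 0.37) and other endothelium (0.17, 0.05 to 0.28), and Nfkb1 was lower in Wnt-high VE (-0.26, -0.47 to -0.05). Other lists differed in the same classes. In Wnt-low AE erythroid markers had 677 and 166 UMIs (-1.54, -1.79 to -1.29), and the immediate early list, 16 genes that respond to dissociation of tissue among other signals, was lower too (-0.29, -0.34 to -0.24). In pre-HE neural markers (-0.66, -0.81 to -0.52), mitosis genes (-0.62, -0.75 to -0.49) and epithelial markers (-1.38, -2.27 to -0.59) were lower and venous markers higher (0.34, 0.12 to 0.56). In IAC the immediate early list had 2229 and 1533 CPM (-0.54), in the opposite direction to Nfkbia. The part of what moved these other lists, and of dissociation, in the ratios was not tested.

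**Figure D3:**
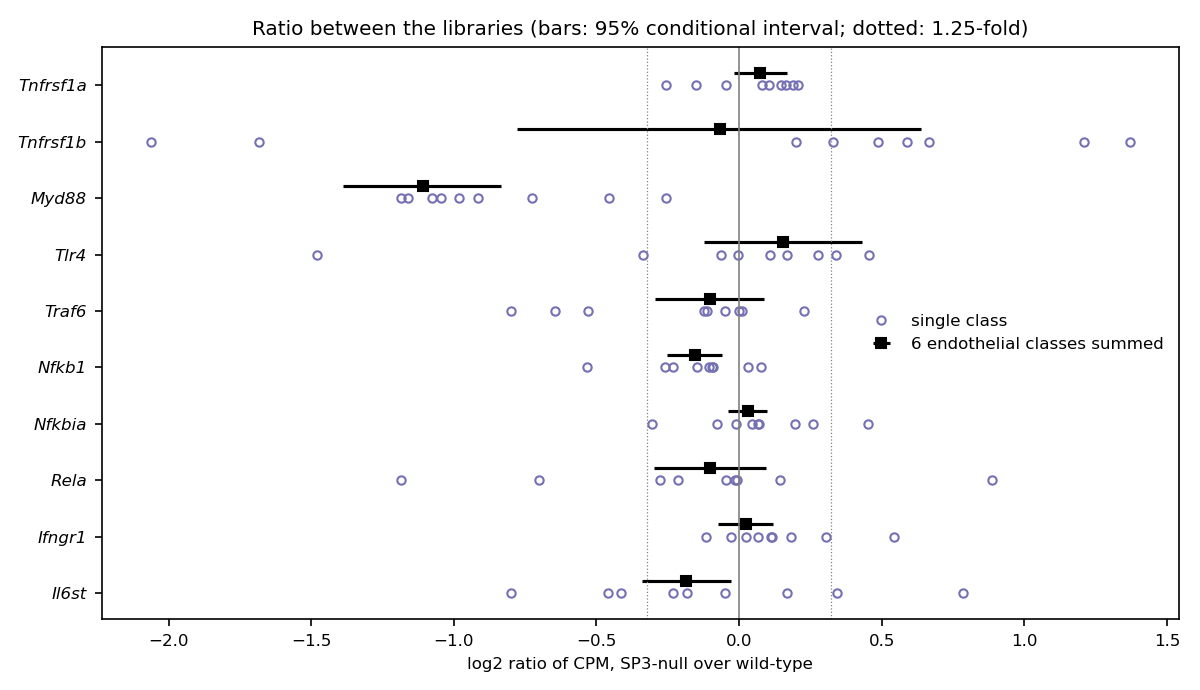
Log2 ratio of SP3-null over wild-type CPM (horizontal axis) for the 10 genes, with the summed endothelium as black squares with exact 95% intervals and each of the 9 classes as an open circle; dotted lines mark log2 0.32. The 9 circles of Myd88 run from -1.19 to -0.26, while those of the other genes lie on both sides of 0.

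Along the transition the genes followed different courses. Nfkbia was highest in conflux AE (146 CPM in wild-type, 138 CPM in SP3-null) and in Wnt-high AE (129 and 135 CPM), whose levels did not differ beyond counting error in either library. It then stood at 87.2 and 99.9 CPM in pre-HE, 84.1 and 68.1 CPM in Wnt-low AE, 68.3 and 67.8 CPM in Wnt-high VE, 57.5 and 60.2 CPM in Wnt-low VE and 56.9 and 68.1 CPM in HE. IAC (41.5 and 56.8 CPM) and other endothelium (43.7 and 45.1 CPM) were lowest. Arterial cells on the Wnt-high side thus carried more Nfkbia than those on the Wnt-low side, by a log2 ratio of 0.61 (0.47 to 0.76) in wild-type and 0.99 (0.82 to 1.16) in SP3-null cells.

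Ifngr1 was highest in pre-HE, at 79.4 CPM (65.9 to 94.8) in wild-type and 116 CPM (94.3 to 140) in SP3-null cells. Conflux AE followed with 66.7 and 82.3 CPM and IAC with 62.6 and 67.7 CPM, then Wnt-low AE with 48.4 and 50.6 CPM, HE with 45.3 and 49.1 CPM and Wnt-high AE with 41.1 and 46.6 CPM. The venous classes (32.7 to 35.9 CPM) and other endothelium (29.2 and 29.6 CPM) were lowest. The order of the 9 classes was thus the same in both libraries, although several neighbours in it, such as the venous pair, did not differ beyond counting error. It did not hold in the random draw that thinned cells to 5000 UMIs. There, wild-type IAC (88.9 CPM) and conflux AE (74.3 CPM) stood above pre-HE (68.6 CPM), while SP3-null pre-HE stayed highest (97.3 CPM). Pre-HE was above conflux AE beyond counting error in SP3-null but not in wild-type cells. Il6st was likewise high in conflux AE (27.2 and 26.3 CPM) and pre-HE (20.8 and 35.9 CPM), and IAC had the lowest level, at 9.49 and 5.45 CPM. Its other 6 classes lay between 12.6 and 19.9 CPM. Mesenchyme markers summed to 33.8 and 35.9 CPM in pre-HE and to 23.4 CPM or less in the other classes, and their part in the pre-HE levels was not tested.

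Tnfrsf1a was highest in conflux AE (52.6 and 60.0 CPM), not beyond the counting error of the next class in either library, and lowest in HE (32.0 and 26.8 CPM) and IAC (35.8 and 34.7 CPM). The other 6 classes lay between 36.6 and 55.6 CPM. With cells thinned to 5000 UMIs, SP3-null Wnt-low AE (62.5 CPM) stood above conflux AE (50.9 CPM). Tnfrsf1b had 16 UMIs (3.79 CPM, 2.17 to 6.16) in wild-type and 21 UMIs (6.03 CPM, 3.73 to 9.21) in SP3-null clusters. Elsewhere it had 14 or more UMIs only in other endothelium (14 and 18) and in Wnt-high AE of the SP3-null library (14), where it stayed at 1.58 CPM or less. Conflux AE held 12 UMIs in wild-type, where it was the highest class at 5.63 CPM (2.91 to 9.84), not beyond the counting error of IAC, and 2 UMIs (1.35 CPM) in SP3-null cells.

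Tlr4 lay between 3.38 and 7.66 CPM in the endothelial classes other than HE and was low in clusters, with 5 UMIs in each library (1.19 and 1.43 CPM). HE, with 7 and 2 UMIs, was too thin to place. Traf6 lay between 7.64 and 14.9 CPM in all classes, and no class differed from the next in its order beyond counting error in either library. The intervals of the highest and the lowest class did not overlap, but both classes were picked by these same values. Wnt-low VE was lowest, at 8.32 (6.92 to 9.91) and 7.64 CPM (6.14 to 9.39). Wnt-low AE was highest in wild-type (13.9 CPM, 11.4 to 16.9) and Wnt-high AE in SP3-null cells (14.9 CPM, 12.4 to 17.6). In SP3-null cells Wnt-low AE had 8.91 CPM, so the highest class was not the same in both libraries. Nfkb1 was highest in clusters (64.0 and 65.4 CPM), not beyond the counting error of the next class, and lay between 35.6 and 61.3 CPM elsewhere. Rela stood at 16.6 and 16.1 CPM in IAC and at 20.8 and 18.0 CPM in pre-HE. Its other levels went apart in the libraries, with 17.8 and 7.82 CPM in HE, 9.86 and 18.2 CPM in conflux AE, the highest SP3-null class, and 12.04 and 7.40 CPM in Wnt-low AE, the lowest SP3-null class, while both venous classes and other endothelium had 9.11 to 10.1 CPM.

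Clusters were then set against arterial endothelium (Wnt-high and Wnt-low AE pooled). Of the 10 genes, 8 had at least 200 UMIs over these classes, and 0 were at least 2-fold higher in wild-type IAC, against 8.12% of the 9072 genes with that many UMIs, while 1 (Nfkbia) was at least 2-fold lower, against 16.8%. In SP3-null cells 1 (Myd88) was at least 2-fold higher, against 9.16%, and 1 (Il6st) at least 2-fold lower, against 18.1%. With cells thinned to 5000 UMIs, Myd88 (1.41) and Ifngr1 (1.01) also passed 2-fold in wild-type clusters. In SP3-null ones Tnfrsf1a (-1.59) and Nfkbia (-1.42) also passed it. Thinning is 1 random draw that leaves few UMIs of a gene in clusters. With each cell weighing the same, wild-type Ifngr1 had 0.20. Whether depth or the draw moved these counts was not tested. Nfkbia went from 106 to 41.5 CPM in wild-type (log2 ratio -1.36, -1.59 to -1.13) and from 110 to 56.8 CPM in SP3-null cells (-0.96, -1.18 to -0.74). Il6st went from 16.5 to 9.49 CPM (-0.80, -1.32 to -0.31) and from 15.3 to 5.45 CPM (-1.49, -2.25 to -0.81). In the other direction Myd88 went from 10.1 to 19.7 CPM (0.96, 0.56 to 1.36) and from 4.88 to 14.3 CPM (1.56, 1.00 to 2.10) and so was higher in clusters in both libraries. Nfkb1 was higher in clusters by 0.45 and 0.61 log2 units and Ifngr1 by 0.48 and 0.49, with intervals above 0 in both libraries. Rela had log2 ratios of 0.40 (-0.02 to 0.81) and 0.75 (0.28 to 1.21), and the wild-type one turned to -0.54 with cells thinned to 5000 UMIs. Tnfrsf1a had -0.48 and -0.49, with intervals below 0. The intervals of Traf6 included 0, at -0.11 (-0.58 to 0.34) and -0.04 (-0.55 to 0.45). The genes under the minimum showed the widest gaps: Tnfrsf1b had log2 ratios of 2.63 (1.37 to 3.99) and 2.24 (1.27 to 3.24), and Tlr4 of -2.35 (-4.01 to -1.07) and -2.15 (-3.81 to -0.87).

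**Figure D4:**
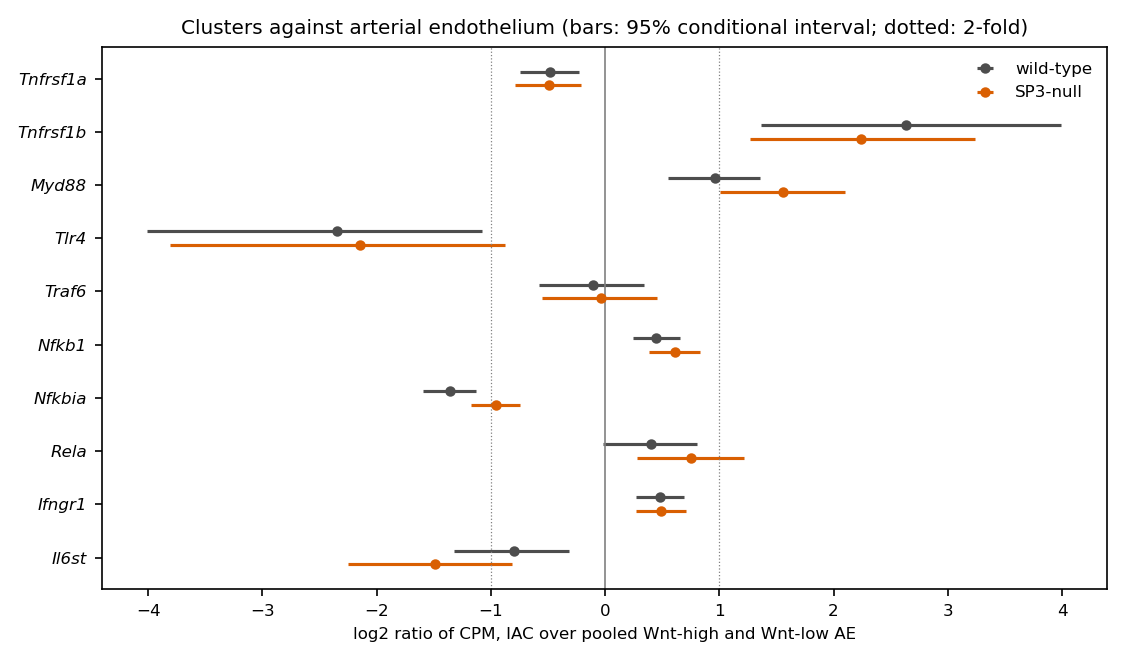
Log2 ratio of CPM in intra-aortic clusters over pooled Wnt-high and Wnt-low AE (horizontal axis) for the 10 genes in each library, with exact 95% intervals and dotted lines at 2-fold. For each gene the points of both libraries lie on the same side of 0, with Tnfrsf1b and Myd88 to the right of 0 and Tlr4, Nfkbia and Il6st to the left.

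The earlier stages were set against AE in the same way. In conflux AE no gene of the 8 measured reached 2-fold, where 3.36% and 5.35% of all genes were higher and lower in wild-type and 4.02% and 4.25% in SP3-null cells. In HE none of the 8 did so either, beside 4.33% and 9.94% in wild-type and 7.69% and 11.0% in SP3-null cells. In pre-HE 0 of the 8 reached it in wild-type, beside 5.55% higher and 5.67% lower, and 2 were at least 2-fold higher in SP3-null cells, beside 7.72% higher and 6.38% lower. These 2 were Ifngr1 (48.1 to 116 CPM, log2 ratio 1.26) and Il6st (15.3 to 35.9 CPM, 1.23), whose ratios in wild-type were 0.83 and 0.33.

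Macrophage transcripts were found in the clusters. The 12 macrophage markers checked summed to 570 and 672 CPM in IAC, with none at 0, and to 3.29 to 31.3 CPM in the other classes, where 3 to 10 of the 12 were at 0. Cells with at least 2 UMIs over 8 of these markers made up 13 of 128 wild-type and 12 of 107 SP3-null cluster cells, which held 12.4% and 15.2% of all cluster UMIs. They held 6 of the 16 and 7 of the 21 Tnfrsf1b UMIs. In cluster cells without such marks, Tnfrsf1b stood at 2.71 and 4.74 CPM, above the 0.611 and 1.27 CPM of AE. In the same order Myd88 had 19.5 and 12.2 CPM in cluster cells without the marks, again above the 10.1 and 4.88 CPM of AE, and 21.1 and 26.5 CPM in the marked cells. Il6st had 7.58 and 4.74 CPM in unmarked cluster cells and 23.0 and 9.45 CPM in the marked ones, and Nfkbia 37.1 and 54.5 CPM against 72.8 and 70.0 CPM. The low cluster levels of Il6st and Nfkbia were thus also seen without the marked cells.

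The ligands of these receptors were scarce. Of 14 ligand genes listed, 1 had 200 UMIs in the summed endothelium, Hmgb1, a chromatin protein that can act as a danger signal outside the cell, at 1871 and 1873 CPM (log2 ratio 0.00, -0.01 to 0.02). Ifng, Lif and Osm had 0 UMIs there and in IAC. Tnf, the ligand of the TNF receptors, had 5 UMIs in the summed endothelium, but 22 UMIs in 13 of 128 wild-type cluster cells and 40 UMIs in 10 of 107 SP3-null ones. Of these, 4 and 27 UMIs lay in macrophage-marked cells, and 1 SP3-null cell held 20. The chemokine genes Ccl2 and Cxcl2 showed how few cells can carry such transcripts: all 95 and 85 Ccl2 UMIs of the clusters were in 4 and 3 marked cells, and all 161 Cxcl2 UMIs of SP3-null clusters in 2 marked cells. Genes of this paragraph other than Hmgb1 were named after their values were seen.

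Nfkbia transcripts were unevenly spread among endothelial cells. Cells with at least 10 Nfkbia UMIs numbered 38 of 2639 in wild-type and 26 of 2401 in SP3-null endothelium, and held 16.2% and 11.4% of its UMIs. Of these, 26 and 19 were arterial, conflux AE or pre-HE cells. Among all 2639 wild-type cells these classes held 939, 188 and 136, and among all 2401 SP3-null cells 922, 145 and 92. Some of the other NF-kappaB target genes had higher levels in the cells with at least 10 Nfkbia UMIs and some did not. Icam1, a leukocyte adhesion molecule, stood at 84.7 CPM against 37.1 CPM in the other wild-type cells (log2 ratio 1.19, 0.91 to 1.46) and at 91.5 against 41.1 CPM in SP3-null cells (1.16, 0.83 to 1.46). Relb, an NF-kappaB subunit gene, stood at 27.3 against 8.43 CPM (1.70, 1.17 to 2.18) and at 16.1 against 6.76 CPM (interval of the ratio 0.42 to 1.98). Tnfaip3, the A20 inhibitor of the pathway, stood at 7.90 against 1.38 CPM (2.52, 1.44 to 3.47) and at 16.1 against 1.74 CPM (3.21, 2.32 to 4.01). The chemokine gene Cxcl1 had 15 UMIs in the 38 cells and 39 in the other 2601 in wild-type, and 15 in 26 and 33 in 2375 cells in SP3-null. Nfkb2 and Birc3 were also higher, with intervals above 0 in both libraries, whereas the intervals of Tnfaip2, Bcl2l1 and Gadd45b included 0. Sod2 was lower in the wild-type cells (log2 ratio -0.36, -0.69 to -0.04) and had -0.01 (-0.38 to 0.34) in SP3-null ones. Of the other receptor and NF-kappaB genes followed here, Nfkb1 was higher in the wild-type cells (72.5 against 44.4 CPM, 0.71, 0.40 to 1.00) and had 0.19 (-0.27 to 0.61) in SP3-null ones, and the intervals of Tnfrsf1a, Ifngr1, Il6st and Rela included 0 in both libraries.

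**Figure D5:**
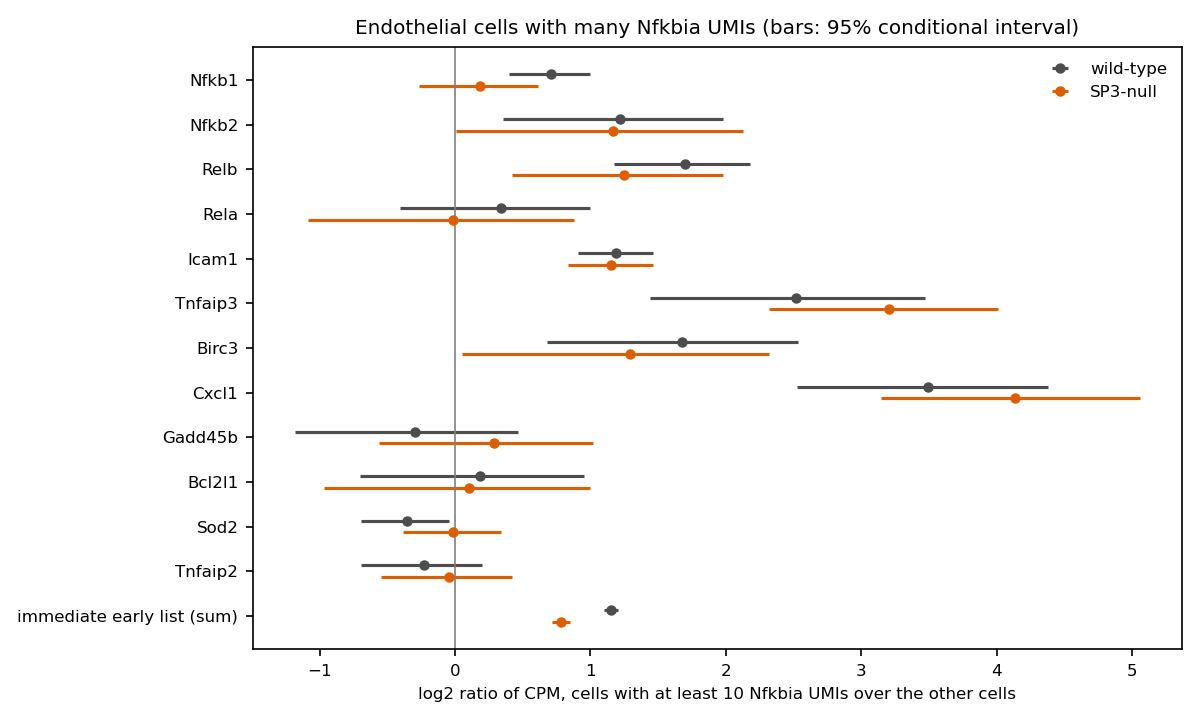
Log2 ratio of CPM in endothelial cells with at least 10 Nfkbia UMIs (38 wild-type, 26 SP3-null) over all other endothelial cells (horizontal axis), with exact 95% intervals, for NF-kappaB genes and for the summed immediate early list. Cxcl1, Tnfaip3, Relb, Birc3, Nfkb2 and Icam1 lie right of 0 in both libraries, while Sod2 and Tnfaip2 do not.

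The selected cells were deeper, with a median of 35067 UMIs against 12777 in wild-type and 31925 against 13923 in SP3-null cells. The immediate early list summed to 2351 CPM against 1057 CPM in wild-type and to 1753 against 1019 CPM in SP3-null cells. The part of dissociation and of doublets, which were not removed here, was not tested. With every cell thinned to 5000 UMIs, cells with at least 3 Nfkbia UMIs (51 and 35 cells) still had more Relb, at 47.1 against 8.57 CPM (log2 ratio 2.46, 1.45 to 3.33) and 28.6 against 8.82 CPM (1.70, 0.04 to 2.97). Their Nfkb2 stood at 23.5 against 4.90 CPM and 22.9 against 3.63 CPM, from 6 and 4 UMIs. Icam1 had log2 ratios of 1.04 (0.29 to 1.70) and 0.69 (-0.28 to 1.51), so that the SP3-null interval now included 0, and Birc3 and Tnfaip3 had at most 2 UMIs in the thinned cells and could not be placed. The immediate early list also stayed higher in the thinned cells with at least 3 Nfkbia UMIs. Its log2 ratios were 0.795 (0.654 to 0.932) in wild-type and 0.519 (0.330 to 0.703) in SP3-null cells. The intervals of Sod2 and Tnfaip2 there included 0 in both libraries. Both cell sets and the thinned comparison were chosen after the values were seen.

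Genes of the wider pathway were taken from lists by role. In the TNF branch, 12 of 13 genes were measured, 4 above and 8 below 0 with a median log2 ratio of -0.02, and 3 were lower by at least 0.32, where 6.48% of all genes were lower and 2.67% higher by as much. These background shares hold for each list below. The 3 were Ripk1, the kinase of the TNF receptor 1 complex, at 29.6 and 16.6 CPM (-0.83, -0.97 to -0.70), the adaptor gene Tradd (7.72 and 5.83 CPM, -0.41) and Rnf31 (5.30 and 4.08 CPM, -0.38), a subunit of the linear ubiquitin ligase. Birc3, an inhibitor of apoptosis, was highest at 0.23 (-0.14 to 0.60), and Cflar and Casp8, with the most UMIs, stood at -0.11 and -0.20. In the toll-like and interleukin-1 branch, 10 of 23 genes were measured, 7 above and 3 below 0 with a median of 0.05. The 1 gene past 0.32 was Ly96 (8.48 and 11.2 CPM, 0.40, 0.20 to 0.61), whose product MD-2 presents endotoxin to TLR4, and Irak1, a kinase bound by MYD88, was lowest at -0.22 (-0.33 to -0.11). Map3k7, the TAK1 kinase, and Tab2, its partner, stood at 0.11 and 0.03.

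Of the kinases, subunits and inhibitors of NF-kappaB, 14 of 17 were measured, 4 above and 10 below 0 with a median of -0.08. Past 0.32 were Nfkbiz, a nuclear IkB protein (9.19 and 5.22 CPM, log2 ratio -0.82, -1.07 to -0.57), and Relb (9.05 and 7.00 CPM, -0.37, -0.60 to -0.14). Ikbkg, which encodes the NEMO subunit of the kinase, was highest at 0.23 (-0.04 to 0.50), and Otulin and Ikbkb stood at 0.08 and 0.06. In the interferon gamma branch, 7 of 8 genes were measured and 6 lay below 0, with a median of -0.09. Irf1, an interferon-induced transcription factor gene, stood at 3.97 and 2.92 CPM (-0.45, -0.80 to -0.09), and Jak1 and Ifngr2 at -0.09 and -0.04. In the gp130 branch, 7 of 10 genes were measured, 3 above and 4 below 0 with a median of -0.01. Socs3, the feedback inhibitor of the receptor, was lower, at 10.5 and 7.28 CPM (-0.53, -0.75 to -0.32), Osmr was highest at 0.31 (-0.09 to 0.70), and the co-receptors Il11ra1 and Lifr stood at -0.04 and -0.28.

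Of 18 NF-kappaB target genes, 8 were measured, 5 above and 3 below 0 with a median log2 ratio of 0.04, and 1, Relb, passed 0.32. Sod2 and Icam1, with the most UMIs, stood at -0.16 and 0.13. The measured targets thus lay on both sides of 0. Of the immediate early genes, 12 of 16 lay below 0, with a median of -0.10, and Fosb (10.3 and 5.83 CPM, -0.82), Egr1 (21.5 and 12.4 CPM, -0.79), Zfp36 (13.6 and 8.97 CPM, -0.60) and Fos (52.5 and 36.8 CPM, -0.51) were lower in the SP3-null library. Socs3, Irf1 and Nfkbiz are known to respond quickly to stimulation too, and the part of dissociation in their ratios was not tested.

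In clusters against AE, the wider lists spread widely. Of the NF-kappaB targets measured there, 3 of 6 in wild-type and 4 of 6 in SP3-null cells were at least 2-fold lower, against 16.8% and 18.1% of all genes, among them Gadd45b (13.5 to 4.74 and 14.8 to 4.02 CPM) and Relb (9.78 to 2.85 and 6.01 to 2.01 CPM), and 1, Bcl2l1, a survival gene, was at least 2-fold higher (6.32 to 20.9 and 7.63 to 24.1 CPM), against 8.12% and 9.16%. In the toll-like branch, Tab2 and Irak1 were higher in clusters, from 63.7 to 170 CPM and from 33.6 to 92.0 CPM in wild-type. Tlr3 (10.1 to 0.474 CPM, with 2 UMIs in clusters) and Ly96 (8.08 to 2.61 CPM, log2 ratio -1.63) were lower in wild-type clusters. Both partners of endotoxin sensing, Tlr4 and Ly96, were therefore low in clusters while Myd88 was high. The receptor chains Lifr (49.9 to 3.08 CPM, log2 ratio -4.02) and Ifngr2 (49.0 to 18.5 CPM, -1.41) were lower as well in wild-type clusters, with -4.58 and -1.81 in SP3-null ones.

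Over the 9 classes, the genes whose profiles were most like that of Myd88 were Ikzf1 (Pearson r of 0.937 in wild-type and 0.935 in SP3-null) and Cd200r1 (0.931 and 0.931), among 10986 genes compared. For Nfkbia the closest was Esyt1, for Nfkb1 they were Fgd2 and Nbeal2, for Rela Tango2 and Zdhhc4, and for Traf6 Asxl1 and Atf6. For Ifngr1 they were Dcaf6 and Cyba, for Il6st Plekha8 and Stox2, for Tlr4 Spin1 and Slc43a3, for Tnfrsf1a Gm36503 and Cyp20a1, and for Tnfrsf1b Rilpl2 and Rabgap1l. The weakest matches were those of Traf6, where the lower r of the libraries was 0.754 and 0.742. These r values describe 9 points that share libraries and depths within each library.

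Sex-linked transcripts differed between the libraries within classes: the log2 ratio, SP3-null over wild-type, of Xist was -1.17 in HE and -0.75 in IAC and that of 4 summed Y-linked genes 1.83 and 1.13, while in the summed endothelium they were 0.16 and 0.14. That sum joins classes that differ, since Xist had 0.42 in both pre-HE and Wnt-high AE, 0.96 in conflux AE and -0.13 in Wnt-low VE. The part of sex in the ratios of these classes was not tested.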

How the data were processed

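One wild-type and 1 SP3-null 10x Genomics 3′ v3 library were analysed. The deposited count matrix holds the authors' UMI counts per gene and cell from Cell Ranger on mm10 (GRCm38), version not stated. The deposited cell table gives library, cell class, UMI total and mitochondrial fraction; the authors assigned classes by projecting cells onto a reference by expression. Its UMI totals exceed the matrix by up to 197 UMIs per cell (0.145% in all). 1 cell labelled as a fetal liver stem cell was left out of the classes. No doublet caller was run and no cell was removed.

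Counts were summed over cells of a class and library and divided by the summed matrix counts (CPM). Levels have exact Poisson intervals and ratios exact conditional intervals, at 95%. Only the ratio intervals were tried, on simulated Poisson sums. Such sums lack the uneven spread of UMIs among cells, so they do not show how the intervals hold in these data. With 1 library per genotype no p-value was computed. Genes needed 200 UMIs over the samples compared; counts were made at a log2 ratio of 0.32 between libraries and 2-fold between classes. Named were all members, list genes past these folds, and the extreme and most abundant genes of a list; other names are said to be chosen after their values were seen. The members and lists were chosen with earlier results of these data known. Alternatives were other scalings (edgeR 4.0.16, DESeq2 1.42.0), minimums, cell weights, thinning to 5000 UMIs and subsets of classes. 2 were added after seeing the data: leaving out barcodes found in both libraries, and leaving out the 1% of cells richest in a gene. Python 3.11.15, numpy 2.4.6, scipy 1.17.1, pandas 2.3.3 and R 4.3.3 were used. Some list genes and matches are not reported here.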

Additional observations from a re-analysis of the deposited data

Results flagged for a closer look

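Nfkbia, Rela and Il6st had log2 ratios of SP3-null over wild-type whose intervals lay on opposite sides of 0 in different cell classes. The share of all genes that do so was not counted. The intervals above 0 of Rela in conflux AE (0.01 to 1.78) and Il6st in pre-HE (0.03 to 1.54) began close to 0. With 1 library per genotype, the difference between classes was not tested. Nfkbia had -0.30 in Wnt-low AE and 0.45 in IAC. With cells thinned to 5000 UMIs its levels in IAC were 36.5 (wild-type) and 38.8 (SP3-null) CPM, a smaller difference. Too few Nfkbia UMIs were left there to show whether the IAC side went. The Wnt-low AE levels were then 85.8 and 71.1 CPM. Rela had -0.70 in Wnt-low AE and 0.88 in conflux AE. Il6st had 0.79 in pre-HE, and -0.46 in Wnt-high AE, -0.41 in Wnt-low VE and -0.23 in other endothelium.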

How the results depend on the processing

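No paired analysis was possible because each genotype had 1 library, and for the same reason no replicate could be left out. The log2 ratio of Myd88 between the libraries stayed between -1.20 and -0.98 over 15 alternatives. Scaling by TMM or by DESeq2 size factors moved all genes by 0.02 between libraries and by -0.07 to -0.09 between clusters and AE. Over arterial classes only, the ratio was -0.034 for Tnfrsf1a, 1.06 for Tnfrsf1b and -0.40 for Rela. With classes weighted alike it was -0.31 for Traf6, 0.24 for Ifngr1 and 0.085 for Il6st. With cells thinned to 5000 UMIs it was -0.056 for Nfkb1, -0.058 for Nfkbia and 0.16 for Ifngr1. For clusters over AE, thinning gave -0.87 for Tnfrsf1a, 1.41 for Myd88, -0.83 for Traf6, -0.54 for Rela and 1.01 for Ifngr1 in wild-type, and -1.59 for Tnfrsf1a and -1.42 for Nfkbia in SP3-null cells, so that 2 genes in place of 0 were at least 2-fold higher in wild-type clusters. With each cell weighing the same, Ifngr1 had 0.20 and 0.21 and SP3-null Tlr4 -0.48, and without the 1% of cells richest in the gene, wild-type Nfkbia had -1.60. With a minimum of 50 UMIs, 1 gene was at least 2-fold higher and 2 lower in wild-type clusters, and 2 higher and 2 lower in SP3-null ones, since more genes entered. The cause of the other shifts was not tested. Of the values recomputed, 141 ratios between libraries, 187 ratios of clusters over AE and 8 counts moved by less than their intervals or 1.5 times. Depth limits Tnfrsf1b and, in HE, conflux AE and pre-HE, every gene with few UMIs.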
